A study of Mus musculus with 18 samples.

Results

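Hepatic steroid hormone metabolism was represented by 9 genes, Cyp17a1, Hsd3b2, Hsd3b3, Hsd3b5, Hsd11b1, Hsd17b2, Hsd17b6, Srd5a1 and Akr1c6, chosen by symbol as enzymes that make or break down steroid hormones. All 9 were found among the 52230 genes with transcripts in the files, and all 9 passed the low-count limit together with 10938 genes in total (at least 10 estimated counts in at least 4 libraries). The libraries were from livers of the GCKR-P446L-EMI-B6N knock-in line, in which the proline of GKRP, the glucokinase regulatory protein, is replaced by leucine, and which was fed a standard rodent diet throughout. The groups were male mice with the 446P form (male PP, n = 4), male mice with the 446L form (male LL, n = 4), female PP mice (n = 5) and female LL mice (n = 5), so that the PP controls shared the line and diet and differed in the Gckr allele. The labels gave ages of 9 to 14 weeks in male PP, 13 to 14 in male LL, 9 to 14 in female PP and 11 to 14 in female LL mice, while the design text gave 14 weeks for all of them. The authors described the PP mice as litter mates of the LL mice, but no source gave the litter of each mouse. The line is a single knock-in.

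The liver does not make steroid hormones from cholesterol as the adrenal gland and gonads do, but it converts and inactivates them as they arrive in the blood. Hydroxysteroid dehydrogenases switch a keto group and a hydroxyl group at one carbon of the steroid, which turns a hormone on or off, and reductases of the Srd5a and Akr1c families saturate the ring or reduce the ketones so that the products can be conjugated and excreted. Many genes of this kind differ by sex in mouse liver, where the pulsatile secretion of growth hormone in males and the more continuous secretion in females act through the transcription factor STAT5B.

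The 18 libraries held 3794671 to 6613905 estimated counts each. The 6 hepatocyte markers were abundant in every library, with a summed level of 463929 to 860709 normalized counts, whereas none of the 6 adrenal or gonadal markers and none of the 9 markers of steroidogenic glands passed the low-count limit, and 4 of those 6 were at 0 in every group. The substitution changes a codon, so the level of Gckr does not check the genotype labels. Gckr differed by -0.12 ± 0.15 (log2 fold change ± SE) in male LL against male PP mice and by -0.05 ± 0.13 between the female groups (DESeq2 adjusted P of 0.860 and 0.915). In these bulk libraries fewer cells of a type and less RNA per cell cannot be told apart.

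The enzymes covered a wide range of levels. On the TPM scale, which divides by transcript length and can be compared between genes within a library, Akr1c6 had the highest median in every group, at 971 TPM in male PP and 1181 TPM in female PP mice. Hsd11b1 was next, at 221 and 630 TPM. In male PP mice Hsd3b3 (139.6 TPM), Hsd3b5 (123.6 TPM), Hsd17b2 (84.5 TPM) and Hsd17b6 (73.1 TPM) followed, then Srd5a1 (14.7 TPM), Hsd3b2 (9.08 TPM) and, at the lowest level, Cyp17a1 (2.58 TPM). Within each of the 4 male PP libraries Akr1c6 was above Hsd11b1, Hsd11b1 above Hsd3b3, Hsd3b5 above Hsd17b2, Hsd17b6 above Srd5a1 and Hsd3b2 above Cyp17a1. The order of Hsd3b3 and Hsd3b5, of Hsd17b2 and Hsd17b6 and of Srd5a1 and Hsd3b2 was not the same in all 4 libraries, so these neighbours did not differ beyond their spread. In female PP mice Akr1c6 and Hsd11b1 again had the highest medians, although Hsd11b1 (1092 TPM) was above Akr1c6 (992 TPM) in female PP 3. There 40.3% of the Hsd11b1 counts were on Hsd11b1-202, a transcript of 836 bases that led in no other library. In normalized counts Hsd11b1 was at 2953 and Akr1c6 at 5443 in this mouse. The part of the transcript split in that order was not tested. Hsd17b6 had the next median at 302 TPM, Cyp17a1, with a median of 55.5 TPM, was above Srd5a1 and Hsd3b2 in every library, and Hsd3b5 had the lowest median at 2.53 TPM. Hsd3b5 spread from 0.535 to 56.3 TPM there and was above both Srd5a1 and Hsd3b2 in female PP 1 and female PP 3. TPM was used for order only, since the median of all genes was 0.60 higher on the log2(TPM + 0.5) scale in female PP mice than in male PP mice. Levels compared between groups below are DESeq2 normalized counts, on which the median log2 difference of all genes was at most 0.01 in these contrasts.

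**Figure D1:**
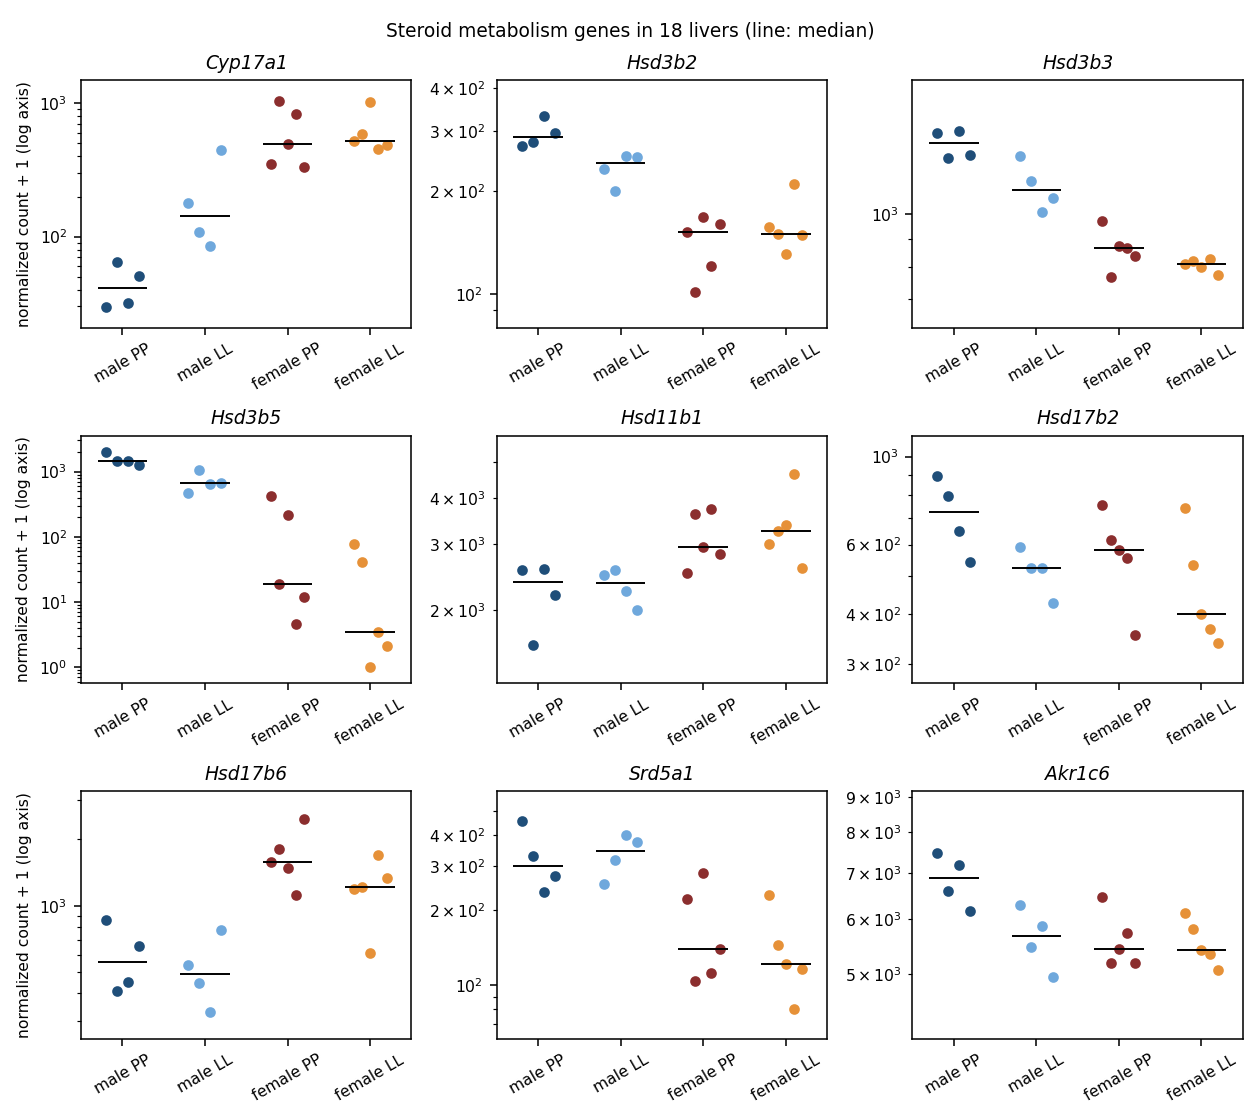
Normalized counts plus 1 (log axis) of the 9 steroid metabolism genes in 18 livers, 1 point per mouse and a line at the median of each group. In PP mice Cyp17a1 and Hsd17b6 were higher and Hsd3b2, Hsd3b3 and Hsd3b5 lower in every female than in every male, and Cyp17a1 lay at 28.8 to 62.9 in male PP and 83.9 to 449 in male LL mice.

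The LL genotype was compared first in males. DEGs (DESeq2 adjusted P below 0.05 and a ratio of means that reached 1.3 or lay under 0.7) numbered 1 of the 9 enzymes, against 0.283% of all genes tested. The enzyme was Cyp17a1 (ENSMUSG00000003555, chromosome 19, 46655604 to 46661611, GRCm39), the P450 that hydroxylates progestogens at carbon 17 and cleaves them to androgens. Its normalized counts were 28.8, 62.9, 31.02 and 49.5 in the 4 male PP mice and 178, 108, 83.9 and 449 in the 4 male LL mice. Every male LL mouse was above every male PP mouse, and the male LL mice spread over a wider range. Cyp17a1 was 4.73-fold higher in male LL mice (log2 fold change 2.24 ± 0.52, adjusted P = 0.00441). None of its sequence was shared with another gene, at the level of words of 31 bases, and 85.9% to 100% of its counts were on the transcript Cyp17a1-201. Without male LL 4, the mouse at 449, the log2 fold change was 1.501 (adjusted P = 0.0357). It was 2.19 to 2.60 with the other tests, scalings and terms tried, but the call was lost with edgeR's quasi-likelihood test (adjusted P = 0.183), with limma on TPM (adjusted P of 0.0516 to 0.104) and without male PP 1 (2.10, adjusted P = 0.0709).

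None of the cell type markers tested was a DEG in males, against 0.283% of all genes. The 5 Kupffer cell markers had a summed level of 406 to 1013 normalized counts in male PP and 361 to 658 in male LL mice, with the ranges of Vsig4 apart (-0.92 ± 0.26, no adjusted P given) and those of the other 4, among them Clec4f (-0.59 ± 0.21, adjusted P = 0.159), overlapping. In male PP and male LL mice the summed stellate level was 262 to 549 and 465 to 759, and the endothelial level 107 to 166 and 140 to 166. The summed hepatocyte level was 463929 to 566085 and 545784 to 652517. The cholangiocyte level, with 1 of 5 markers tested, was 74.7 to 118 and 54.4 to 73.1, without overlap. Mitochondrial genes took 8.52% to 10.6% of counts in male PP and 9.96% to 17.9% in male LL mice. The part of these in the male differences was not tested.

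Hsd3b5 (ENSMUSG00000038092, chromosome 3, 98525941 to 98553068), which encodes a ketosteroid reductase of male liver, had the largest difference of the other enzymes in males. Its normalized counts were 2010, 1461, 1449 and 1259 in male PP mice and 474, 1056, 652 and 663 in male LL mice. The highest male LL mouse was below the lowest male PP mouse. In the fit of all 18 libraries, which has 1 dispersion per gene over the 4 groups, the difference was -1.12 ± 1.32 (adjusted P = 0.846). In the fit of the 8 male libraries alone it was -1.11 with an adjusted P of 0.000438, and Cyp17a1 was given no adjusted P there (unadjusted p = 0.000223). With age as a term the difference was -0.80 (adjusted P = 0.961). The 2 fits called different enzymes in males and gave the same directions.

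The remaining enzymes had smaller differences in males. Hsd3b2, a dehydrogenase and isomerase that converts pregnenolone-type steroids, had 270, 277, 331 and 296 normalized counts in male PP and 232, 200.2, 253 and 251 in male LL mice, again with no overlap, and a difference of -0.33 ± 0.17 (adjusted P = 0.434) that was 0.07 on the log2(TPM + 0.5) scale. Its neighbour Hsd3b3 differed by -0.26 ± 0.09 (adjusted P = 0.177), and by 0.04 on the log2(TPM + 0.5) scale. Akr1c6, the mouse form of a reductase that makes testosterone, differed by -0.28 ± 0.10 (adjusted P = 0.209) and Hsd17b2, which oxidises estradiol and testosterone to less active ketones, by -0.48 ± 0.24 (adjusted P = 0.435). At an unadjusted p below 0.05 there were 5 of the 9 enzymes, 4 of them lower, against 7.81% of all genes. Ranges that did not overlap were found for 3 enzymes, Cyp17a1, Hsd3b5 and Hsd3b2, against 4.07% of all genes. Hsd11b1, Srd5a1 and Hsd17b6 differed by 0.06 ± 0.19, 0.06 ± 0.32 and -0.18 ± 0.31, with the opposite sign for Hsd11b1 with fragment length as a term (-0.05) and for Hsd17b6 on the log2(TPM + 0.5) scale (0.04). The median of all genes was 0.26 higher in male LL mice on that scale. None of these 3 differences was larger than the spread between mice.

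**Figure D2:**
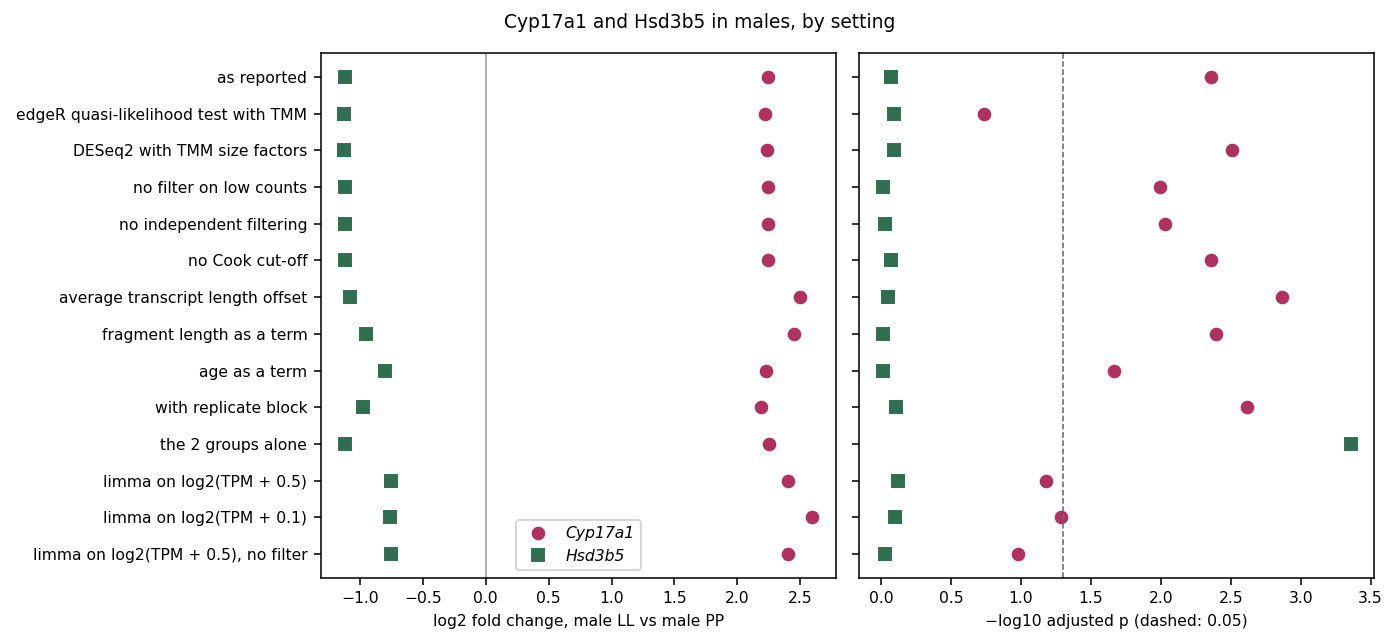
Log2 fold change and −log10 adjusted P of Cyp17a1 (circles) and Hsd3b5 (squares) in male LL against male PP mice in the fit reported and under 13 other settings. Cyp17a1 lies above 0 and Hsd3b5 below 0 in all of them, and only the fit of the 8 male libraries alone puts Hsd3b5 past the dashed line at an adjusted P of 0.05. In the adjusted P panel Cyp17a1 has no point for that fit, which gave it no adjusted P.

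In females none of the 9 enzymes was a DEG by LL genotype, against 0.658% of all genes tested with DESeq2. Under edgeR the count was also 0, and at an unadjusted p below 0.05 there was 1 enzyme, against 13% of all genes. Ranges lay apart for none of them, against 2.66% of all genes. The enzyme at the unadjusted p was Hsd3b5, at 422, 18.2, 214, 3.62 and 11.1 normalized counts in female PP and 75.6, 39.5, 0, 2.47 and 1.09 in female LL mice. The groups overlapped, and each held mice with almost no transcript beside mice with many times more. The difference was -2.49 ± 1.19 (adjusted P = 0.294), and it was -1.38 without female PP 1 and -3.63 without female LL 1. Cyp17a1 had 350, 1039, 495, 828 and 332 normalized counts in female PP and 525, 593, 1017, 453 and 483 in female LL mice, a difference of 0.01 ± 0.46 (adjusted P = 0.995) that was -0.03 on the log2(TPM + 0.5) scale. The 2 groups covered nearly the same range. Hsd17b6 differed by -0.49 ± 0.27 (adjusted P = 0.382), and the other 6 enzymes by -0.31 to 0.17, with the sign of Hsd11b1 turned on the log2(TPM + 0.5) scale (-0.48) and that of Akr1c6 with age as a term (0.05). Female LL libraries also had shorter fragments than female PP libraries, 292 ± 52.1 against 448 ± 108 bases (SD, n = 5 each, two-sided exact permutation p = 0.0159, adjusted over 2 tests 0.0317). This difference was known from earlier results on the same libraries, so the p describes it and is not a fresh test. Fragment length was estimated as the median of length minus Salmon's effective length over transcripts of at least 3000 bases. With fragment length as a term none of the 9 enzymes was called, as without it.

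The genotype difference was then compared between the sexes. None of the 9 enzymes passed an adjusted P of 0.05 in the genotype by sex interaction of DESeq2, against 0.119% of all genes, and none did with edgeR. At an unadjusted p below 0.05 there were 2, against 5.67% of all genes. For Cyp17a1 the difference by LL genotype was lower in females by 2.23 on the log2 scale (-2.23 ± 0.69, DESeq2 adjusted P = 0.0854). It was called without male LL 3 (-2.49, adjusted P = 0.0327), and was -1.49 with an adjusted P of 0.355 without male LL 4. For Hsd3b2 the interaction was 0.50 ± 0.23 (DESeq2 gave no adjusted P), and -0.05 on the log2(TPM + 0.5) scale, on which the median of all genes was -0.36. A difference between the sexes in the response to the LL genotype was therefore not shown for any of the enzymes at this number of mice.

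The sexes were then compared within each genotype. In PP mice 5 of the 9 enzymes were DEGs between females and males, against 6.45% of all genes, and ranges did not overlap for 5, against 9.74% of all genes. Cyp17a1 was 14.1-fold higher in female PP mice than in male PP mice (3.82 ± 0.50, adjusted P = 2.68e-12), with the lowest female at 332 and the highest male at 62.9 normalized counts. Hsd17b6 (ENSMUSG00000025396, chromosome 10, 127826802 to 127843497), which oxidises androstanediol back towards active androgen, had 856, 409, 452 and 654 normalized counts in male PP and 1580, 1810, 1479, 1121 and 2482 in female PP mice, without overlap. It was 2.86-fold higher in females (1.52 ± 0.29, adjusted P = 9.24e-06). Both enzymes that were higher in females kept their calls under each of the 31 alternatives tried in this contrast.

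**Figure D3:**
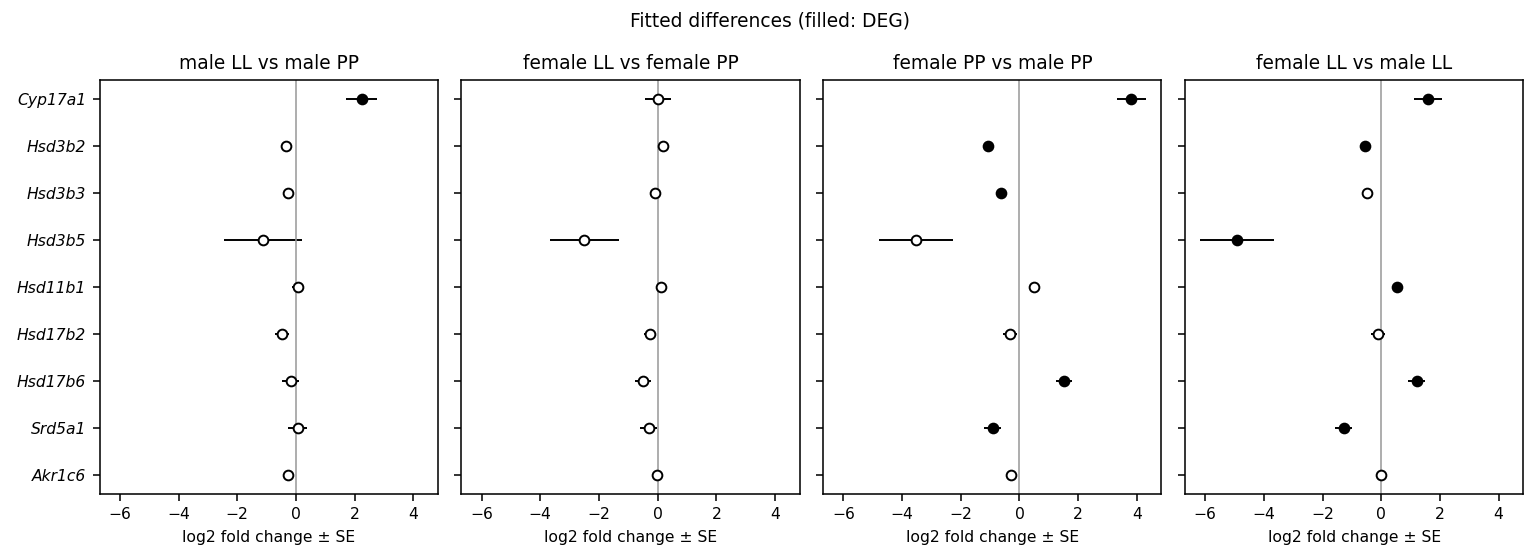
Log2 fold change ± SE from DESeq2 for the 9 enzymes in 4 contrasts, with filled points for DEGs. In females against males Cyp17a1 and Hsd17b6 lie to the right and Hsd3b2, Hsd3b5 and Srd5a1 to the left of 0 in both genotypes, and the bars of Hsd3b5 are the widest.

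The enzymes that were lower in female PP mice were Hsd3b2, Hsd3b3 and Srd5a1. Hsd3b2 (ENSMUSG00000063730, chromosome 3, 98616571 to 98631859) had 151, 101, 167, 120 and 160 normalized counts in female PP mice, all below the 270 of the lowest male PP mouse, and was 2.10-fold lower (-1.07 ± 0.16, adjusted P = 2.18e-09). Hsd3b3 (ENSMUSG00000062410, chromosome 3, 98648793 to 98670443) had 1410, 1265, 1422 and 1286 in male PP and 971, 765, 874, 865 and 836 in female PP mice and was 1.56-fold lower (-0.64 ± 0.09, adjusted P = 3.83e-11). Both genes lay apart without overlap. Srd5a1 (ENSMUSG00000021594, chromosome 13, 69721568 to 69759750), the steroid reductase that makes dihydrotestosterone, had 454, 328, 234 and 272 in male PP and 220, 103, 279, 111 and 138 in female PP mice. These ranges overlapped, and the call of the difference of -0.92 ± 0.30 (adjusted P = 0.0379) was lost without any 1 of 6 libraries, for example without male PP 1 (-0.71, adjusted P = 0.238), and with edgeR (adjusted P = 0.0933). It held under 6 of the 13 other settings.

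On the log2(TPM + 0.5) scale the calls of Hsd3b2, Hsd3b3 and Srd5a1 were lost, with differences of -0.21, -0.05 and -0.24. Relative to the shift of 0.60 in the median of all genes on that scale, these were -0.81, -0.65 and -0.84. Hsd3b5 was lower in every female PP mouse than in every male PP mouse, by 3.53 ± 1.25 on the log2 scale, but missed the threshold (adjusted P = 0.0627). It was called with edgeR (adjusted P = 0.0444), with age as a term (-5.85, adjusted P = 1.93e-05) and with a replicate block (-3.85, adjusted P = 0.0182). Akr1c6 had an adjusted P of 0.0454 with a difference of -0.29 ± 0.10, under the fold limit. Hsd11b1, which regenerates active corticosterone from its inert ketone, differed by 0.49 ± 0.18 (adjusted P = 0.0687). It was called without female PP 1 (0.56, adjusted P = 0.0373), female LL 4 (adjusted P = 0.0274) or female LL 5 (adjusted P = 0.0491), and on the log2(TPM + 0.5) scale (1.41, adjusted P = 0.00134). Hsd17b2 differed by -0.33 ± 0.23 (adjusted P = 0.517), or by 0.18 on the log2(TPM + 0.5) scale and by -0.58 with age as a term (adjusted P = 0.00315).

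Between female LL and male LL mice 6 enzymes were DEGs, against 6.12% of all genes, and 5 had ranges that did not overlap, against 8.16%. Cyp17a1 (1.59 ± 0.49, adjusted P = 0.0220), Hsd17b6 (1.21 ± 0.29, adjusted P = 0.00133) and Hsd11b1 (0.54 ± 0.18, adjusted P = 0.0350) were higher in female LL mice. Hsd3b5 (-4.90 ± 1.26, adjusted P = 0.00369), Srd5a1 (-1.28 ± 0.30, adjusted P = 0.00118) and Hsd3b2 (-0.57 ± 0.16, adjusted P = 0.0114) were lower. Hsd3b3 was lower by 0.48 ± 0.09 with an adjusted P of 5.83e-06 and missed only the fold limit. For Cyp17a1, female LL mice were 3.00-fold above male LL mice, whereas female PP mice were 14.1-fold above male PP mice, and the test of that difference is the interaction given above. Without male LL 4 the Cyp17a1 difference was 2.32. The call was lost with edgeR (adjusted P = 0.0501) and without female LL 3, male LL 1, male LL 2 or male LL 3 (adjusted P of 0.0754, 0.0833, 0.109 and 0.0840). The Hsd11b1 call was lost without any 1 of 6 libraries, for example without female LL 4, whose 4637 normalized counts were the highest (0.40, adjusted P = 0.146), and with the average transcript length offset the difference was 0.25 (adjusted P = 0.688). The Hsd3b2 call was lost with fragment length as a term (-0.47, adjusted P = 0.102), without male LL 3 (-0.53, adjusted P = 0.0521) and, by the fold limit, without female LL 3 (-0.50). Hsd3b5 was given no adjusted P without female PP 1, female PP 3 or female LL 2, and its difference was -6.04 without female LL 1 and -4.58 without female LL 3. Hsd17b6 was called under 9 and Srd5a1 under 10 of the 13 other settings, and both without each mouse in turn. The Hsd17b6 ranges overlapped, with female LL 3 at 611 and male LL 4 at 772 normalized counts.

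The labels' age, examined after the values were seen, was fitted as a slope beside the 4 groups in DESeq2. Hsd17b2 (ENSMUSG00000031844, chromosome 8, 118428254 to 118485774) was lower in older mice, by -0.18 ± 0.03 on the log2 scale per week (adjusted P = 0.000126), where 0.192% of all genes passed in either direction and 0.0731% were lower with age. Its normalized counts were 894, 795, 649 and 540 in male PP mice of 9, 12, 14 and 14 weeks, and 755, 615, 580, 553 and 354 in female PP mice of 9, 9, 11, 12 and 14 weeks. The slope was -0.22 to -0.16 and was called without each of the 18 mice in turn, with adjusted P of 4.95e-06 to 0.0372, but it was not called with edgeR (-0.18, adjusted P = 0.0976, 0.00914% of all genes). Hsd3b5 had a slope of -0.86 ± 0.25 (adjusted P = 0.192), Srd5a1 of -0.14 ± 0.06 (adjusted P = 0.814) and Akr1c6 of -0.04 ± 0.02 (adjusted P = 0.873). The other 5 enzymes had adjusted P of 0.998 or more. The design text gives 1 age for all mice, so these slopes rest on the labels.

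**Figure D4:**
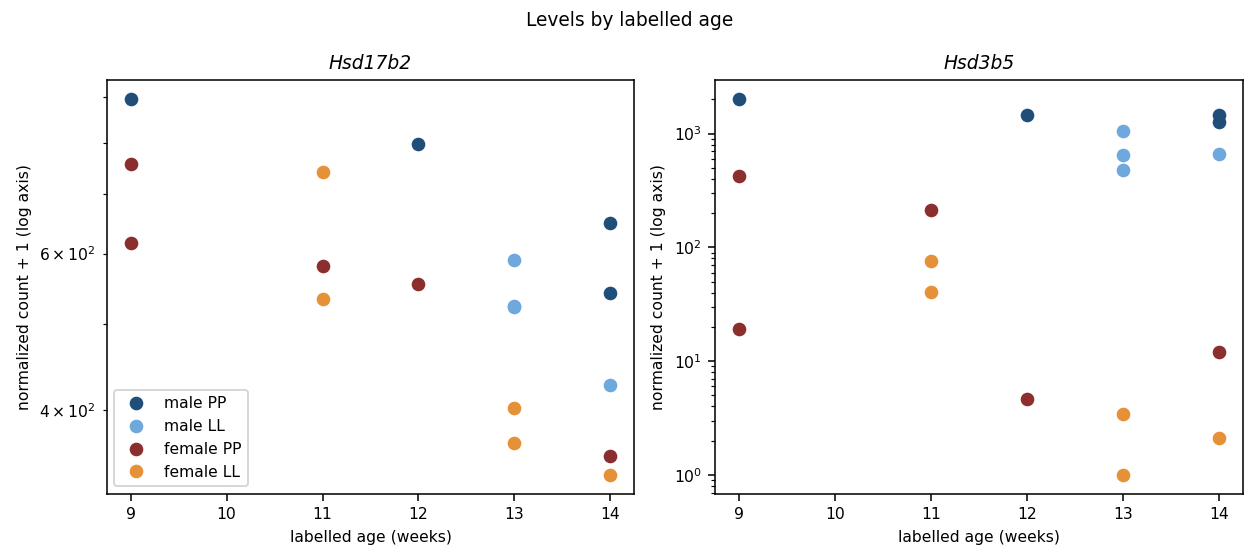
Normalized counts plus 1 (log axis) of Hsd17b2 (left) and Hsd3b5 (right) against the labelled age in weeks, 1 point per mouse and a color per group. Hsd17b2 lies highest in the youngest and lowest in the oldest mice of each group.

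Libraries of female PP mice also held more transcript of endothelial and stellate cell markers. The endothelial markers Kdr and Cdh5 (2 of 5 tested) and the stellate cell markers Reln, Dcn and Lrat (3 of 4 tested) were DEGs, all higher than in male PP mice. Of all genes 6.45% were called in that contrast. The summed endothelial level was 107 to 166 normalized counts in male PP and 182 to 373 in female PP mice, and the summed stellate level 262 to 549 and 641 to 876. None of the 5 Kupffer cell markers was called, and their summed levels overlapped (406 to 1013 and 744 to 938). The summed hepatocyte level was also higher in female PP mice (463929 to 566085 and 759918 to 860709). Of the hepatocyte markers Alb was higher (0.94 ± 0.10) and Serpina1c lower (-0.59 ± 0.18), and the erythroid gene Alas2 was lower (-2.73 ± 0.26). Their part in the sex differences above was not tested. Between female LL and male LL mice none of the 5 endothelial and 4 stellate markers tested was called, while the Kupffer cell marker Vsig4 was higher and Serpina1c and Alas2 were lower. Between female LL and female PP mice no marker tested was a DEG. There the summed Kupffer levels lay apart (454 to 725 and 744 to 938). The endothelial (136 to 233 and 182 to 373), stellate (375 to 861 and 641 to 876) and hepatocyte levels (647465 to 775506 and 759918 to 860709) overlapped. Alb was the only marker called in the interaction, with a lower difference by LL genotype in females. The part of these in the enzyme differences was not tested.

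The 3 Hsd3b genes lie next to one another in the order Hsd3b5, Hsd3b2, Hsd3b3 on the minus strand of chromosome 3, and share sequence. Words of 31 bases that also occur in transcripts of other genes made up 37.7% of Hsd3b2, 34.4% of Hsd3b5 and 11.7% of Hsd3b3, so their counts depend on how Salmon split the reads among copies. For Hsd17b6 and Srd5a1 the shares were 13.2% and 20.9%, for Akr1c6 5.53%, for Hsd17b2 1.27% and for Cyp17a1 and Hsd11b1 0%.

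Promoter windows, the 250 bases before a RefSeq start, were compared because each of the 3 Hsd3b genes was a DEG in at least 1 of the sex contrasts. The RefSeq table (GRCm38.p6) held 9 windows of 7 of the enzymes, and none was looked for elsewhere for Cyp17a1 and Hsd17b2. Each window was placed on GRCm39 by exact match. Of the Hsd3b5 window 30 bases are shown, the run shared with Hsd3b3 and its flanks. The nearest annotated transcript of Hsd3b5 starts 218 bases upstream of the RefSeq start. Most of this window, with the bases shown, therefore lies within the annotated gene. Capitals mark in Hsd3b3 and Hsd3b5 their longest identical run, of 24 bases, and in Hsd3b2 the reverse complement of TGTTCT, a core bound by glucocorticoid and androgen receptors. The Hsd3b3 sequence is at chr3:98670445-98670694, Hsd3b5 at chr3:98552977-98553006, Hsd3b2 at chr3:98631860-98632109 and Hsd17b6, shown as an enzyme that was higher in females, at chr10:127843498-127843730, all on the minus strand.
Hsd3b3: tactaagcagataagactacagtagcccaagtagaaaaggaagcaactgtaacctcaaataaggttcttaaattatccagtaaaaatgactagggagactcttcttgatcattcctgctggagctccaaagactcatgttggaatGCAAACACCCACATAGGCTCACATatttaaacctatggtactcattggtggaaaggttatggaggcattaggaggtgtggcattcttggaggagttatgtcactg
Hsd3b5: gagGCAAACACCCACATAGGCTCACATgtt
Hsd3b2: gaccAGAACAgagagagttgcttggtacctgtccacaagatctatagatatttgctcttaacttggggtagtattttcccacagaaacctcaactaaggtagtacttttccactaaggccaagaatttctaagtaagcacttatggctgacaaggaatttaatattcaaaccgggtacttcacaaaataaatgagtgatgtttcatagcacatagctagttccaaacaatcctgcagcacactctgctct
Hsd17b6: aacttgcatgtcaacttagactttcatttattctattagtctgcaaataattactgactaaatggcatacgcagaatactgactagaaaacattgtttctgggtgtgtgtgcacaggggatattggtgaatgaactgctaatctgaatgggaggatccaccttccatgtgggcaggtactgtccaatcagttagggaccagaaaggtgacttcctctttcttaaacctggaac

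The Hsd3b5 window aligned with that of Hsd3b3 over 199 bases, 151 of them (75.9%) identical. The Hsd3b2 window, from the gene between them, aligned with Hsd3b3 over 36 bases, and windows of enzymes of other families over 10 to 27 bases. The window of the other RefSeq start of Hsd3b3 was identical at 248 of 249 aligned bases. Of the motifs searched on both strands, TTCNNNGAA (STAT5 type, in 7.02% of 32817 promoter windows of the same length), ATCGAT (CUX2 and HNF6 core, 0.728%), CACGTG (E-box, 6.02%), GTTAAT (HNF1 type, 6.44%) and TTGCNNAA (C/EBP type, 9.57%) were in none of the 9 windows. TGTTCT (16.1%) was in that of Hsd3b2, and TATAAA (12.4%) in that of Akr1c6. A match or its absence describes these letters in these windows only. The windows of Srd5a1, Hsd11b1, Akr1c6 and Hsd17b6 and that of the other Hsd3b3 start also lay partly or wholly within the annotated genes.

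Transcript shares were examined because counts were assigned to transcripts before they were summed. A single transcript held most of the counts of Cyp17a1, Hsd3b2, Hsd17b2 and Srd5a1 in all 18 libraries, and Hsd3b5 had 1 transcript. In Hsd11b1 the leading transcript was Hsd11b1-205 in 9 libraries, Hsd11b1-201 in 7 and others in 2, and the share of Hsd11b1-201 ran from 12.8% to 99.4%. Hsd11b1-203 held 66.3% in male LL 4 and a median of 1.15% over all libraries. In Hsd3b3 the transcript Hsd3b3-204 led in 15 libraries, while Hsd3b3-202, with a median of 0%, led in male PP 3 (48.25%), male PP 4 (42.9%) and male LL 4 (68.1%). Whether these shares differed between groups was not tested. The coefficient of variation for Hsd3b3 in male PP mice was 6.07% on normalized counts and 29.3% on TPM.

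**Figure D5:**
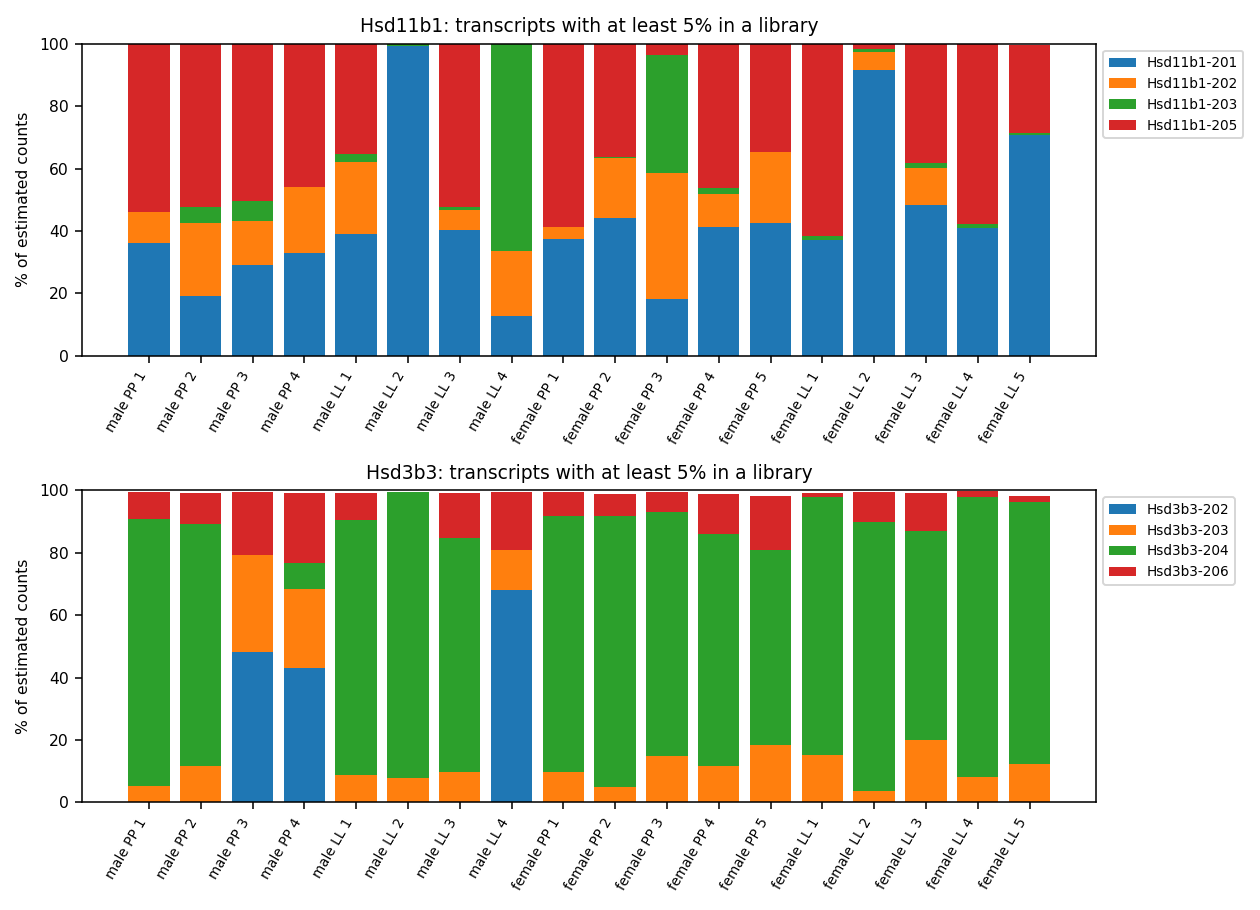
Percent of the estimated counts of Hsd11b1 (top) and Hsd3b3 (bottom) on each transcript that reached 5% in a library, 1 bar per mouse. Male LL 2 and female LL 2 carry Hsd11b1 almost wholly on Hsd11b1-201, and male PP 3, male PP 4 and male LL 4 carry much of Hsd3b3 on Hsd3b3-202.

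Pairs of enzymes were compared across the 18 libraries as a description, since the points share sex, genotype and library depth. Pearson's r of log2(normalized count + 1) between Hsd3b5 and Srd5a1 was 0.90, and 0.74 after the group means were subtracted. The 3 females with the highest Hsd3b5 (female PP 1, female PP 3 and female LL 1) were also the 3 with the highest Srd5a1, at 220, 279 and 229 normalized counts. Hsd17b2 and Akr1c6 had r of 0.80, and 0.76 within groups. Cyp17a1 ran against Hsd3b3 (-0.90) but within groups the value was -0.31.

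The genes most alike were then listed for each enzyme among all genes with a mean of at least 50 normalized counts, over the same 18 libraries. For Cyp17a1 these were Fads1 and Cyp2a4 (r of 0.92 each), and within groups As3mt and Cyp2a4 (0.83 each). Hsd3b5 was most like Mup3 and C8b (0.97 each), and within groups Slco1a1 and Mup3 (0.92 each), a bile acid and steroid conjugate transporter and a major urinary protein. Srd5a1 was most like Serpina1e and C8b (0.92 each), and within groups C6 (0.90) and Mup1 (0.88). Hsd11b1 was most like Gckr, the edited gene, and Ces1c (0.89 each), and within groups Ak3 (0.91) and Gckr (0.89). Hsd3b2 was most like Nox4 (0.92) and Phyh (0.90), Hsd3b3 like Gpcpd1 and Mup11 (0.94 each), Hsd17b6 like Ugcg (0.89) and Ctsc (0.88), Hsd17b2 like Gtf2b (0.82) and Fgb (0.80), and Akr1c6 like Gm31583 and C130074G19Rik (0.84 each). Within groups the closest genes were Smap1 (0.79) and Nox4 (0.75) for Hsd3b2, Slc30a1 (0.77) and Man1b1 (0.75) for Hsd17b6, Gtf2b and Zfp825 (0.83 each) for Hsd17b2, and Pals2 (0.85) and Gm31583 (0.81) for Akr1c6.

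Other steroid enzymes were taken from a list of 33 genes, of which 31 were found and 19 tested. For this and the lists below, the share of all genes called by LL genotype was 0.283% in males and 0.658% in females. It was 6.45% between the sexes in PP mice, 6.12% in LL mice and 0.119% in the interaction. By LL genotype 1 was a DEG in each sex. Hsd3b7, an enzyme of bile acid synthesis that shares 89.3% of its words with other genes, was lower in male LL mice (-0.52 ± 0.15, adjusted P = 0.0471, 1267 ± 163 in male PP and 886 ± 117 normalized counts in male LL, SD, n = 4 each). Cyp39a1, an oxysterol hydroxylase, was lower in female LL mice (-0.84 ± 0.23, adjusted P = 0.0390). In female PP against male PP mice 3 were higher and 3 lower, against 6.45% of all genes called in either direction. Cyp39a1 (2.26 ± 0.27), Rdh9 (1.17 ± 0.25) and Rdh16 (0.79 ± 0.22) were higher, and Cyp7b1 (-4.80 ± 0.42, adjusted P = 5.72e-27), the hydroxylase of oxysterols and dehydroepiandrosterone, Hsd17b10 (-0.56 ± 0.14) and Akr1c14 (-0.84 ± 0.21) were lower. In female LL against male LL mice 4 were higher, among them Rdh9 and Rdh16, and 3 lower, led by Cyp7b1 (-4.19 ± 0.42) and Akr1c13 (-0.51 ± 0.12). Of all genes 6.12% were called in that contrast. The median log2 fold change of the 19 was -0.12 in PP and 0.13 in LL mice, against 0.00 and 0.01 for all genes.

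Of 9 redox partners and carriers tested, none was called by LL genotype. The smallest p was that of H6pd, which supplies the reduced cofactor of Hsd11b1, in males (-0.55 ± 0.18, adjusted P = 0.110) and of Cyb5a, a partner of Cyp17a1, in females (0.40 ± 0.12, adjusted P = 0.0633). In female PP against male PP mice Serpina6, the corticosteroid-binding globulin, was higher (1.10 ± 0.30, adjusted P = 0.00481), and H6pd (-0.60 ± 0.17, adjusted P = 0.00839) and Scp2, a sterol carrier (-0.87 ± 0.12, adjusted P = 4.59e-11), were lower. Serpina6 was again higher and Scp2 again lower in female LL than in male LL mice (1.01 ± 0.29 and -0.97 ± 0.12).

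Of 6 steroid receptor genes tested, Pgrmc1, a progestogen-binding membrane protein that also contacts P450 enzymes, was higher in female LL than in female PP mice (0.43 ± 0.11, adjusted P = 0.0164), and Esr1, the estrogen receptor, was higher in female PP mice than in male PP mice (1.33 ± 0.31, adjusted P = 0.000543). None was called in males, where Nr3c2 had the smallest p (-0.85 ± 0.28, unadjusted p = 0.00230, no adjusted P given), or between female LL and male LL mice, where it was Esr1 (0.76 ± 0.30, adjusted P = 0.103). Among 13 glucocorticoid-responsive genes tested none was called by LL genotype. Tat had the smallest p in males (0.74 ± 0.33, adjusted P = 0.340) and Fkbp5 in females (-0.62 ± 0.23, adjusted P = 0.154). Sgk1 was higher in female PP mice than in male PP mice (1.16 ± 0.32, adjusted P = 0.00612), and Tdo2 lower in female LL than in male LL mice (-0.67 ± 0.18, adjusted P = 0.00592).

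Of 18 regulators of sex-dependent transcription tested, none was called by LL genotype, with the smallest p for Socs2 in males (-1.10 ± 0.41, unadjusted p = 0.00691, no adjusted P given) and Tox in females (0.65 ± 0.26, adjusted P = 0.190). In female PP against male PP mice, where 6.45% of all genes were called, Cux2 (5.49 ± 0.81) and Trim24 (1.10 ± 0.26) were higher. Bcl6 (-2.09 ± 0.62) and Zfp809 (-0.74 ± 0.22) were lower. CUX2 and BCL6 are the repressors tied to the female and the male pattern of growth hormone. In female LL against male LL mice 6 were higher, with Tox (1.79 ± 0.32), Cux2 (5.98 ± 1.11), Nr1i3 (0.93 ± 0.23) and Trim24 (1.02 ± 0.26) first by p. Zfp809 was lower, and 6.12% of all genes were called. None of the genes in these 5 lists was called in the genotype by sex interaction, where the smallest p of each list was that of Cyp39a1 (-1.51 ± 0.38, no adjusted P given), Cyb5a (0.40 ± 0.18, adjusted P = 0.401), Pgrmc1 (0.33 ± 0.16, adjusted P = 0.458), Tat (-0.95 ± 0.44, adjusted P = 0.442) and Socs3 (1.21 ± 0.49, no adjusted P given).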

How the data were processed

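RNA from 18 mouse livers was sequenced, and the authors quantified transcripts with Salmon 1.4.0 against GENCODE on GRCm39. The deposited tables hold, per the file headers, estimated counts (NumReads, of which 90.8% of values above 0 were not whole) and TPM per transcript for each mouse. Of 139225 transcripts, 137570 were joined to 52230 genes by the GENCODE M39 annotation and 1655 were left out. The joined transcripts held at least 99.76% of the counts of each library. Estimated counts were summed per gene and rounded. The 10938 genes that reached 10 counts in 4 or more libraries were fitted in DESeq2 1.42.0 (R 4.3.3), in 1 Wald model of 4 groups with Benjamini-Hochberg adjustment, and DEGs passed an adjusted P of 0.05 with a ratio of 1.3 or above or 0.7 or below (the interaction: adjusted P alone). Where DESeq2 returned no adjusted P, none is given. Alternatives were edgeR 4.0.16, limma 3.58.1 on log2(TPM + 0.5) or + 0.1, other scalings, filters and terms, a replicate block and leaving out each mouse. TPM, deposited by the authors, was otherwise used only for levels per length. Total counts of 3794671 to 6613905 limit the precision of low genes, and P values measure the spread between these mice. The fits were also run on simulated counts, and the outcome is not given here. These had 1 mean and 1 dispersion per gene over the 4 groups, apart from chosen genes changed in 1 group. Genes such as Hsd3b5, whose level and spread differed by sex, are not covered by that setting. The members and gene lists were chosen with earlier results of these data known. Named in the text are the 9 enzymes, per list and contrast up to 4 DEGs with the smallest p (or the single gene with the smallest p where none was a DEG), and the 2 genes most alike each enzyme. Cell type markers, motifs and sequences shown were added beside these. The genes most alike Hsd3b3 after the group means were subtracted are not reported here.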

Additional observations from a re-analysis of the deposited data

Results flagged for a closer look

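In 1 of the 36 sets of values (9 enzymes in 4 groups) a mouse stood far from the others of its group. Cyp17a1 in female LL 3 was at 1017 normalized counts, with the next mouse at 593, a gap of 0.752 of the range of the group. Chance alone gives about 1 in 20 such sets. Without this mouse the difference of Cyp17a1 between female LL and female PP mice was -0.25 and that between female LL and male LL mice was 1.33 (adjusted P = 0.0754).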

How the results depend on the processing

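With edgeR 3 genes were DEGs in males (31 in the fit reported), 3 in females (72) and 0 in the interaction (13), and 0 of the 9 enzymes in males. With the average transcript length offset the counts were 53 in males and 28 in females. With fragment length as a term they were 14 in females and 432 between female LL and male LL mice (669), with age as a term 44 in females, and without independent filtering 8 in the interaction. On log2(TPM + 0.5), log2(TPM + 0.1) and log2(TPM + 0.5) with no filter, DEGs numbered 0, 9 and 1 in males, 0, 0 and 1 in females, 4613, 4757 and 3630 between female PP and male PP mice, and 0, 0 and 1 in the interaction. Between female LL and male LL mice they numbered 441 with log2(TPM + 0.1) and 241 with no filter, and of the enzymes 0 were called in males and 2 between female LL and male LL mice in each. On the TPM scales the difference turned in males for Hsd3b2 (0.0672, 0.0708), Hsd3b3 (0.0360, 0.0361) and Hsd17b6 (0.0385, 0.0390), in females for Cyp17a1 (-0.0302, -0.0300) and Hsd11b1 (-0.485), and in female PP against male PP mice for Hsd17b2 (0.176, 0.177). Hsd11b1 also turned with fragment length as a term in males (-0.0492) and females (-0.0318) and with the length offset in females (-0.426). In the interaction the sign turned on the TPM scales for Hsd3b2 (-0.0512, -0.0531), Hsd3b3 (-0.385, -0.386), Hsd11b1 (-0.859, -0.860), Hsd17b2 (-0.226, -0.227) and Akr1c6 (-0.0577), and with the length offset for Hsd11b1 (-0.446). With age as a term Cyp17a1 (-0.0151) and Akr1c6 (0.0452) turned in females. On the log2(TPM + 0.5) scale the median log2 difference of all genes was itself away from 0. It was 0.26 in males, -0.09 in females, 0.60 in female PP against male PP mice and -0.36 in the interaction. Of the 4613 DEGs on that scale, 4529 were higher and 84 lower in female PP mice. The values on the TPM scales above are not relative to these medians. The cause of these changes was not tested.

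Leaving out each mouse in turn gave 20 (without male PP 2) to 60 (without male LL 4) DEGs in males, 28 to 270 (without female PP 4) in females, 3 to 27 (without female LL 3) in the interaction, and 3 to 6 enzymes between female LL and male LL mice. Differences that changed sign ranged from -0.0718 to 0.131 (Hsd11b1), -0.438 to 0.0456 (Hsd17b6) and -0.0679 to 0.268 (Srd5a1) in males, from -0.245 to 0.294 (Cyp17a1), -0.0321 to 0.191 (Hsd11b1) and -0.0514 to 0.0430 (Akr1c6) in females, from -0.0829 to 0.0310 (Akr1c6) between female LL and male LL mice, and from -0.0885 to 0.181 (Hsd11b1) in the interaction.

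The replicate numbers ran in order of labelled age within each group, so a replicate block also carries age. Whether the numbers pair the mice was not settled. Correlations of deviations between mice of the same number were -0.17 to 0.16. A library correlated best with its own number for 3 of 5 in females, 0 of 4 in males and 1 of 4 in each sex contrast. With a replicate block 34 DEGs were found in males, Cyp17a1 stayed called there (2.19), Hsd3b5 was also called in female PP against male PP mice (-3.85), and Akr1c6 between female LL and male LL mice was at 0.00824.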
